A study of Mus musculus with 2 samples.

Results

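The genes Meis1, Meis2, Onecut1, Onecut2, Foxp1, Foxp2, Foxo1, Foxo3, Rest and Sirt1, were followed here in the chromatin that miR-9 contacts in mouse lung fibroblasts. They were chosen as transcription regulators whose mRNAs are known targets of miR-9 in the cytoplasm, or close relatives of such targets. The choice rule names genes and uses no measured value, but it was made with earlier results of these data known. A peak belonged to a gene when HOMER, the program that annotated the deposited list, gave it that gene's symbol, which is the gene with the nearest transcription start site (TSS). By this rule 41 of the 17922 peaks in the list belonged to 9 of the 10 genes, and Onecut1 had no peak.

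The cells were MLg (ATCC CCL-206), an established line of mouse lung fibroblasts, with no treatment named in the labels. Chromatin isolation by RNA purification (ChIRP-seq) fixes RNA to chromatin with formaldehyde, pulls it out with biotinylated oligonucleotides against mature miR-9, and sequences the DNA that comes along. There was 1 miR-9 capture library and 1 input chromatin library, so no value below has a replicate check, and the intervals cover counting error only. The list holds positions and annotation with a score of 0 for every peak, so peaks had no height, p-value or depth here. A capture with a control probe was not analysed here, and contact through miR-9 and contact through the probe cannot be told apart in this list.

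In the cytoplasm a microRNA guides Argonaute to sites in the 3' UTR of an mRNA that pair with its seed, and the mRNA is then less stable and less translated. miR-9 is best known from the developing brain, where it acts on mRNAs of repressors and of homeodomain and forkhead factors. ChIRP-seq reads DNA, so it asks another question, namely whether miR-9 is found at the genes themselves.

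The mature miR-9-5p, from the RefSeq annotation of GRCm38.p6, is shown because each result below is read against it. It has 23 bases, and the capitals mark its seed, bases 2 to 8.
miR-9-5p: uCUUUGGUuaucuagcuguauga

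The seed pairs with the letters ACCAAAG in an mRNA, and the curated RefSeq 3' UTRs of 5 of the 10 genes held this match, 19 times in all. The matches outside Onecut2 are shown, each with 30 bases of the mRNA strand in mm10, as places where the seed could pair with these mRNAs. Shorter seed matches and matches in coding sequence were not sought. The capitals mark the match of 7 bases, or of 8 where an A faces base 1 of miR-9.
Foxp1, chr6:98928268-98928297, minus strand: acctttttttatttctaaaattACCAAAGA
Foxp1, chr6:98928077-98928106, minus strand: agcagactatgtaggcaatggaACCAAAGt
Foxp2, chr6:15438869-15438898, plus strand: cagtcaaaggctacagctgcaaACCAAAGc
Foxp2, chr6:15439559-15439588, plus strand: catggtatttattttcagtcaaACCAAAGt
Foxo3, chr10:42183349-42183378, minus strand: gctctagaacctgataccttgtACCAAAGA
Sirt1, chr10:63320284-63320313, minus strand: gtaaagggaacagcttatctagACCAAAGA

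None of the 19 matches lay under a peak. The same share over the 3' UTRs of all genes was not computed, for these or for the longer models below. Whether the count is lower than usual is therefore not known. Outside Onecut2 the nearest peak was 10.9 kb from the match in Sirt1, 15.3 kb from the nearer match in Foxp1, 19.0 kb from that in Foxo3 and 62.8 kb from the nearer match in Foxp2. The 3' UTRs of Meis1, Meis2, Foxo1, Rest and Onecut1 held no match in these models, of which those of Rest (713 bases) and Onecut1 (50 bases) were short. The longer GENCODE models added 1 match in Rest, 3 in Onecut1, 1 in Foxp2 and 1 in Onecut2, and none of the 25 matches then counted lay under a peak.

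Long stretches of miR-9 letters, called words here, were looked for in the peaks on both DNA strands. A word of 10 or more bases was present in 3 of the 41 peaks, or 7.32% (exact binomial 95% interval 1.54 to 19.9%), beside 6.04% of all peaks. The words lay in 2 introns of Foxp1 and in 1 peak assigned to Sirt1, and a further one lay in a Foxp1 intron under a peak that HOMER assigned to Mir12201, a microRNA gene inside Foxp1. They are shown as the longest words found in the peaks at these genes, since sequence outside the peaks was not searched. The word is in capitals in 30 bases of the strand that reads like miR-9.
Sirt1, chr10:63300876-63300905, plus strand, miR-9 bases 10 to 20: ggaagagtcATCTAGCTGTAccctcacccg
Foxp1, chr6:98944062-98944091, plus strand, miR-9 bases 6 to 16: gcatttaggGGTTATCTAGCaaccgacctc
Foxp1, chr6:99094148-99094177, minus strand, miR-9 bases 11 to 21: acattgctccTCTAGCTGTATttcatccat
Foxp1 intron (Mir12201), chr6:99217590-99217619, minus strand, miR-9 bases 9 to 20: ccctgtgtaTATCTAGCTGTAagttggact

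The stretch shared by all 4 words was TCTAGC, miR-9 bases 11 to 16, and it was picked from these same words. It lies past the seed, and 1 of the 4 words reached into the seed. Over all peaks, 1082 held a word of 10 or more bases, and in 528 of these (48.8%) the longest word covered the same 6 bases. In the Sirt1 peak the word was 17 bases from the peak centre, and in the Foxp1 peaks it was 48, 151 and, for the 12-base word, 327 bases from it. The seed match itself, in either strand, was in 4 of the 41 peaks (9.76%, 2.72 to 23.1%), beside 8.65% of all peaks. These 4 peaks were 2 intergenic peaks of Meis1, 1 intergenic peak of Foxo3 and 1 intronic peak of Foxp2.

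**Figure D1:**
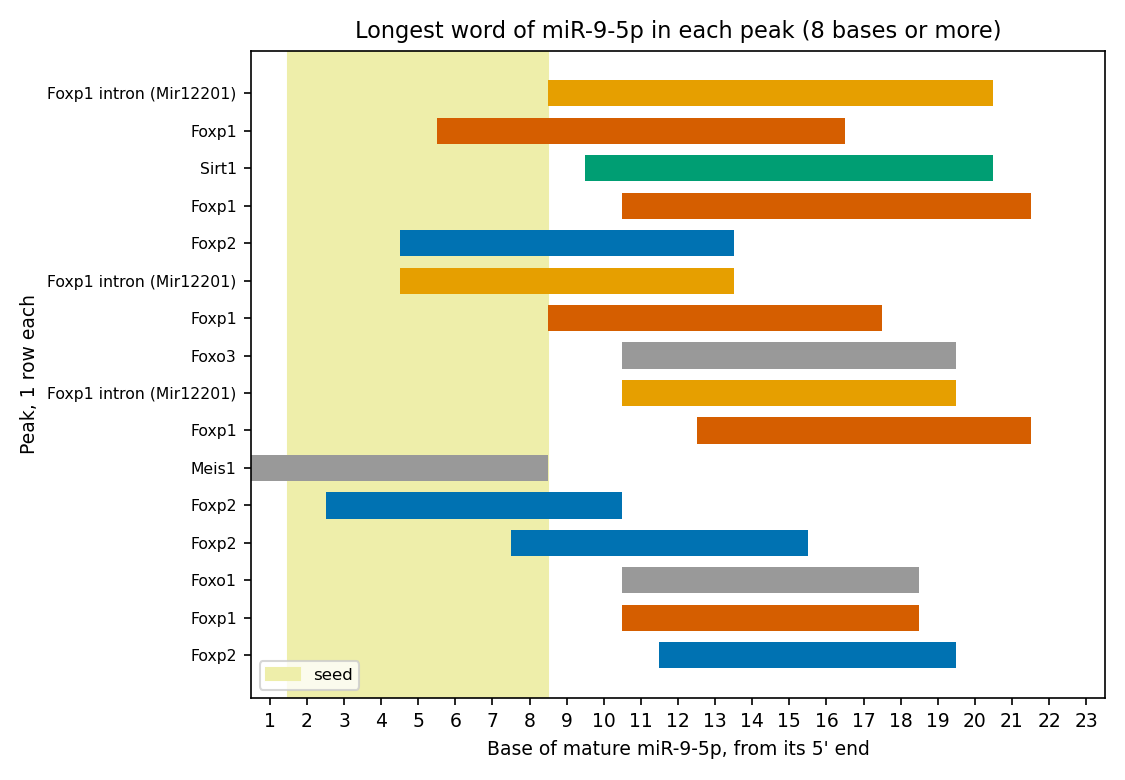
Longest word of miR-9-5p in each peak that held one of 8 bases or more, with 1 row per peak and the bases of the miRNA on the x axis. The shaded band is the seed (bases 2 to 8). Bases 11 to 16 are the stretch that the 4 longest words share, picked from these same words.

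The peaks of these genes lay mostly in introns and in intergenic DNA. Of the 41 peaks, 20 were intronic (48.8%, 32.9 to 64.9%, beside 42.1% of all peaks), 18 were intergenic (43.9%, beside 49.5%), 1 was at a promoter, 1 in a 3' UTR and 1 at a transcription termination site (TTS). Foxp1 and Foxp2 held 15 of the intronic peaks, and of the 17 peaks of the other genes 5 were intronic (29.4%, 10.3 to 56.0%). Of the 20 intronic peaks, 18 lay in the gene they were assigned to and 2 in another gene. The peaks lay far from gene starts, at a median of 84.4 kb beside 29.5 kb for all peaks, and 20 of the 41 lay over 100 kb away (48.8%, 32.9 to 64.9%, beside 23.6%). Without Foxp1 and Foxp2 the median was 49.2 kb, and 8 of 17 peaks lay over 100 kb away (47.1%, 23.0 to 72.2%). Peaks of 1 gene share its size and surroundings, so the 41 peaks are not 41 separate observations.

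**Figure D2:**
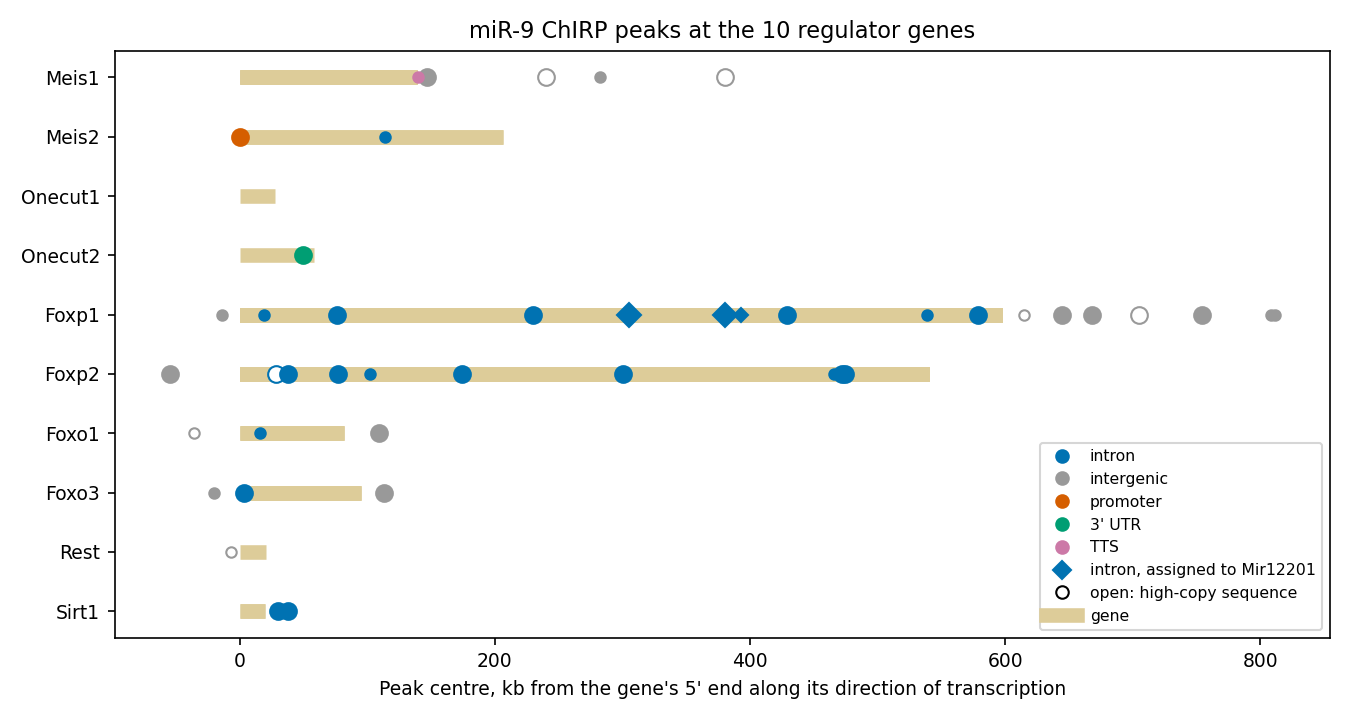
Centre of each peak in kb from the 5' end of its gene, along the direction of transcription, for the 10 genes, with the gene as a bar. Large points are peaks over 250 bases, open points lie in high-copy sequence, and diamonds are the 3 peaks in Foxp1 assigned to Mir12201. Foxp1 and Foxp2 carry peaks along their length, the 5 peaks of Meis1 lie past its end, and Onecut1 has none.

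Meis1 and Meis2 code for homeodomain factors of the TALE class. Meis2 was the only one of the 10 genes with a peak at a promoter. This peak, chr2:116067213-116067743, was 531 bases wide and its centre lay 34 bases before the TSS of 1 Meis2 transcript, NM_001346047. It also overlapped the annotated gene G630016G05Rik. Its G and C content was 57.6%, beside a median of 42.2% over all peaks, of which 3.33% were promoter peaks. No median was taken over promoter peaks alone. The Meis2 peak held no word of miR-9 of 7 bases or more. It did hold a G-quadruplex motif, in which 4 runs of 3 or more G, parted by 1 to 7 bases, let DNA fold into a stacked structure. The motif is shown on the plus strand with its runs of G in capitals, as the only one in a peak at a start site of these genes. Start sites without a peak were not searched for the motif.
Meis2, chr2:116067589-116067613: GGGagaGGGaGGGaGGGaGGGaGGG

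Among the 41 peaks, 3 held such a motif (7.32%, 1.54 to 19.9%), beside 5.65% of all peaks, and the other two were peaks of Foxp1. The remaining peak of Meis2, of 156 bases, lay in intron 8 of transcript NM_001136072, 110.9 kb from the nearest TSS. Of the 10 genes, 1 thus had a peak within 2 kb of the start of a curated mRNA, beside 6.64% of 21000 protein-coding genes. Within 5 kb there were 2, the other being Foxo3. The share of all protein-coding genes within 5 kb is not given here, so whether 2 is usual is not known.

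Meis1 had 5 peaks, and none lay inside the gene. The nearest, chr11:18879767-18879942, of 176 bases, was annotated as its TTS and lay 0.6 kb past the gene's end. The other 4 were intergenic, 146.1, 239.5, 282.0 and 379.3 kb from the Meis1 TSS, on the downstream side. The peaks at 239.5 and 379.3 kb lay in L1Md_T elements, a family of young LINE retrotransposons, and their 32-base words had medians of 870 and 5138 places in the assembly. The peaks at 146.1 and 239.5 kb overlapped other annotated genes, 8430419K02Rik and Gm31674. The 5 peaks thus lay 0.6 to 240.8 kb past the gene, and the 139.2 kb of the gene held none.

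Foxp1 and Foxp2 code for forkhead repressors, the first needed in heart, lung and B cell development and the second known for speech and motor learning. They held 24 of the 41 peaks. Foxp1 had 14 assigned peaks, 6 in its introns and 8 intergenic. With the 3 intronic peaks assigned to Mir12201, 9 peaks lay inside its 597.4 kb. Foxp2 had 10 assigned peaks, 9 in its introns and 1 intergenic, 54.7 kb before its start. Neither gene had a peak in an exon, a 3' UTR or within 2 kb of a start.

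In Foxp1, the intronic peak nearest to a start, chr6:99446598-99447052, lay 11.5 kb before the TSS of NM_053202, in the first intron of a longer transcript. The widest assigned peak, chr6:98943571-98944280, was 710 bases wide, lay in intron 14 of NM_001197321 and held the 11-base word of miR-9 bases 6 to 16. The other 11-base word lay in the peak chr6:99093848-99094380, in intron 4 of NM_053202. The widest peak inside the gene, chr6:99216709-99217846, with 1138 bases and the 12-base word, was the one assigned to Mir12201, and the other two peaks with that assignment were 105 and 403 bases wide. Words of 10 or more bases were thus in 3 of the 9 peaks inside Foxp1 (33.3%, 7.49 to 70.1%) and in none of the 9 inside Foxp2. Of the 14 peaks assigned to Foxp1, 2 held one (14.3%, 1.78 to 42.8%). The shares beside them were 6.04% of all peaks, 9.71% of all peaks over 250 bases and 6.11% of the intronic peaks of chromosome 6. The longest word in a Foxp2 peak had 9 bases.

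Past the end of Foxp1, 7 intergenic peaks lay at 17.2 to 213.7 kb. One of these was in an IAPEz-int element and another in a B1_Mm element, both mostly of high-copy sequence. The remaining intergenic peak was 131 bases wide, over a simple repeat, 15.7 kb before the TSS of NM_001347345. All 17 peaks at Foxp1 spread over 825 kb, with gaps of 2.4 to 153.6 kb and a median of 38.2 kb between them.

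In Foxp2, the peak nearest to a start was chr6:15201724-15202315, 16.5 kb past the TSS of NM_001286607. The intergenic peak, at 659 bases, was the widest. The only peak mostly of high-copy sequence was chr6:14929681-14930275, in an L1Md_A element of the first intron. Foxp2 peaks were low in G and C, with a median of 32.8% inside the gene against 45.7% inside Foxp1 and 42.2% over all peaks. A group of 3 Foxp2 peaks lay within 10 kb of each other in intron 3 of NM_212435, at chr6:15367098-15367225, chr6:15373096-15373639 and chr6:15375501-15376081, and between them and the 3' UTR lay 61.9 kb without a peak.

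Foxo1 and Foxo3 code for forkhead factors that insulin and growth factor signalling holds out of the nucleus through Akt. Each had 3 peaks, of which 1 was in its own intron. The Foxo3 peak, chr10:42273184-42273998, was the widest of the 41 at 815 bases and lay in intron 2 of NM_019740, 3.2 kb past the TSS. It held no repeat, its longest miR-9 word had 7 bases (bases 1 to 7), and it overlapped the annotated gene Gm38485. The other Foxo3 peaks lay 19965 bases before the TSS, with a width of 91 bases, and 112.7 kb past it, with a width of 611 bases, a seed match and a 9-base word. The intronic Foxo1 peak, chr3:52283866-52284014, was 149 bases wide, in a B2_Mm1t element 15.6 kb past the TSS. The widest Foxo1 peak, of 491 bases, lay 109.3 kb past it, and a peak of 132 bases, 35.9 kb before it, lay in an IAPEz-int element whose words had a median of 1535 places in the assembly.

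Rest codes for the repressor that keeps neuronal genes silent outside neurons, and Sirt1 for a NAD-dependent deacetylase of histones and transcription factors. The only peak of Rest, chr5:77258909-77259059, was 151 bases wide and lay 6.5 kb before the TSS in a B1_Mus1 element, a SINE. The assembly held 85.8% of its 32-base words at least 5 times, and the median word 9069 times, so reads of this peak could come from other copies. Without peaks mostly of high-copy sequence, Rest had none. The 2 peaks assigned to Sirt1, chr10:63300725-63301089 and chr10:63308879-63309433, lay 38.1 and 29.9 kb past its TSS, in introns 14 and 17 of Herc4, a neighbouring ubiquitin ligase gene. The first, in part a B3 SINE but not of high-copy sequence, held the 11-base word. No peak lay inside Sirt1 or Rest, the shortest of the 10 genes.

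Onecut1 and Onecut2 code for cut-homeodomain factors of liver, pancreas and nervous system. Onecut1 had no assigned peak, and the peak nearest to its start was 203.4 kb away and assigned to Myo5a. Onecut2 had 1 peak, which was the only 3' UTR peak among the 41 and lay at chr18:64389333-64389892, in the last exon of NM_194268. An assigned 3' UTR peak was thus present in 1 of the 10 genes, beside 0.84% of 21774 protein-coding genes. The 3' UTR of Onecut2 was the longest of the 10 at 11857 bases, and its 13 seed matches were the most of the 10. In the curated RefSeq models that was 1.096 per kb, against 0 to 0.61 per kb in the others. The 0 of Onecut1 came from only 50 bases. In the GENCODE models Onecut1 held 3 matches in 2186 bases and Onecut2 14 in 14359, so Onecut2 was not the densest there.

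The 560-base peak covered bases 2702 to 3261 of the curated Onecut2 3' UTR and held no seed match and no miR-9 word of 7 bases or more. The stretch without a match in which it lay had 3218 bases. The 5 matches before the peak were all of 8 bases, and the nearest ended 181 bases before it. The 8 matches after the peak began 2479 bases past it, and 3 of them were of 8 bases. Of the 13 matches, 3 lay within 1 kb of the peak, and these were the only ones of the 19 that did so.

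**Figure D3:**
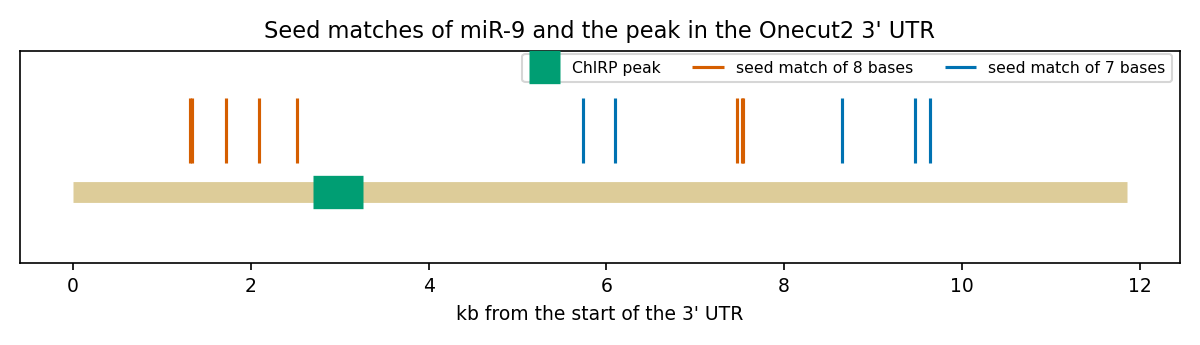
The 3' UTR of Onecut2 in kb from its start, with the peak as a thick block and the 13 seed matches of miR-9 as lines. The peak, at 2.7 to 3.26 kb, holds none of them, and the nearest match ends 181 bases before it.

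Repeats were as common in the peaks of these genes as in the list, with 20 of 41 peaks (48.8%, 32.9 to 64.9%) beside 48.7%. Peaks mostly of high-copy sequence, with most 32-base words at 5 or more places, were 7 of 41 (17.1%, 7.15 to 32.1%) beside 21.5%. They were 2 each of Meis1 and Foxp1 and 1 each of Foxp2, Foxo1 and Rest. Peaks of 250 bases or less made up 15 of the 41 (36.6%, 22.1 to 53.1%) beside 47.3% of all peaks, and the median width was 531 bases beside 408.

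An assigned peak was more common among these genes than among genes in general, and the share has to be read against their size. Of 21774 protein-coding genes, 34.2% had one, against 9 of the 10 (95% interval 55.5 to 99.7%). The share rose with span, from 28.05% of genes under 50 kb to 47.2% at 50 to 100 kb, 59.2% at 100 to 250 kb and 74.0% over 250 kb. The 7 members over 50 kb all had a peak, and of the 3 under 50 kb Rest and Sirt1 had one and Onecut1 had none. Counting only peaks inside the gene, 6 of the 10 had one. The shares above are of assigned peaks, and the share of all genes with a peak inside was not computed.

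**Figure D4:**
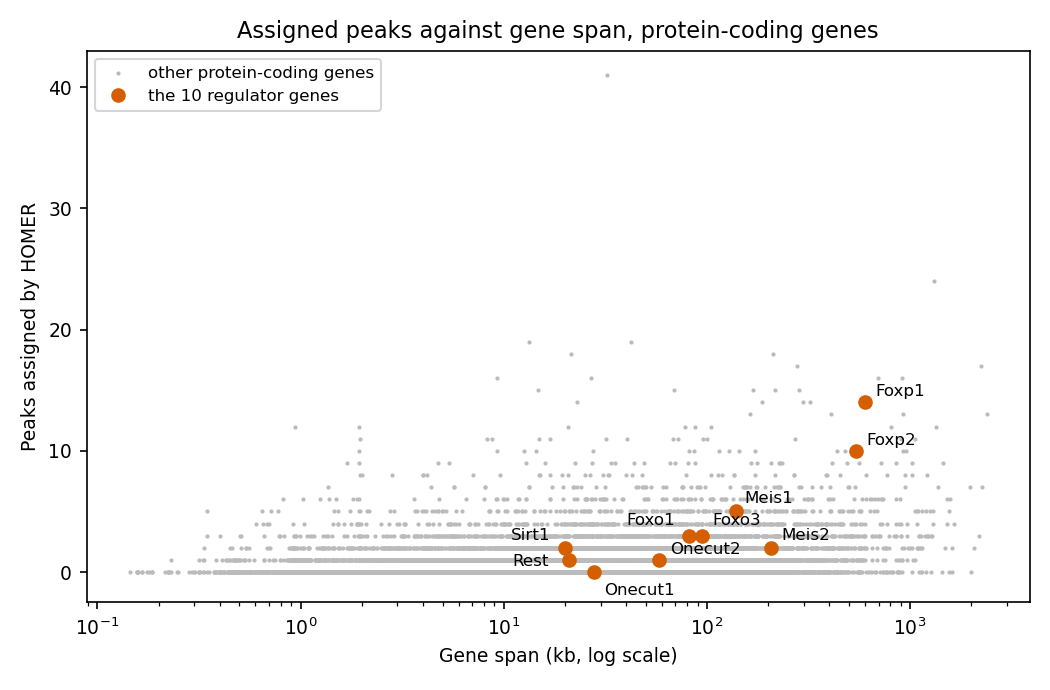
Peaks assigned by HOMER to each protein-coding gene (y axis) against the gene's span in kb (x axis, log scale), with the 10 genes named. Foxp1, with 14 peaks, and Foxp2, with 10, are the longest of the 10.

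Foxp1 and Foxp2 had many peaks even for long genes. Among 722 genes over 250 kb, where the median was 2 peaks and the 90th percentile 6, 6 genes had more peaks than Foxp1 and 17 had more than Foxp2. Both lie on chromosome 6, which had the most peaks per Mb of all chromosomes (11.41, with chromosome 19 next at 11.38), and among its 46 genes over 250 kb the median was 4, with 1 gene above Foxp1 and 2 above Foxp2.

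Per Mb of gene, Foxp1 held 15.1 peaks (exact Poisson 95% interval 6.89 to 28.6) and Foxp2 16.6 (7.61 to 31.6). The genes of chromosome 6 over 250 kb held 8.29 together (7.22 to 9.48), a value inside both intervals, and this sum includes Foxp1 and Foxp2. All 722 protein-coding genes over 250 kb held 5.06 together (4.83 to 5.30), a value below both intervals, with Foxp1 and Foxp2 among them. Over all 10 genes the density was 12.9 peaks per Mb (8.16 to 19.3, from 23 peaks in 1.79 Mb), beside 8.24 over all protein-coding genes. Without Foxp1 and Foxp2, which held 9 each of the 23 peaks, it was 7.70 (2.50 to 17.97, from 5 peaks). All protein-coding genes on chromosome 6 together held 13.1 peaks per Mb (12.2 to 14.0). For each of the 10 genes the interval included the density of its chromosome.

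**Figure D5:**
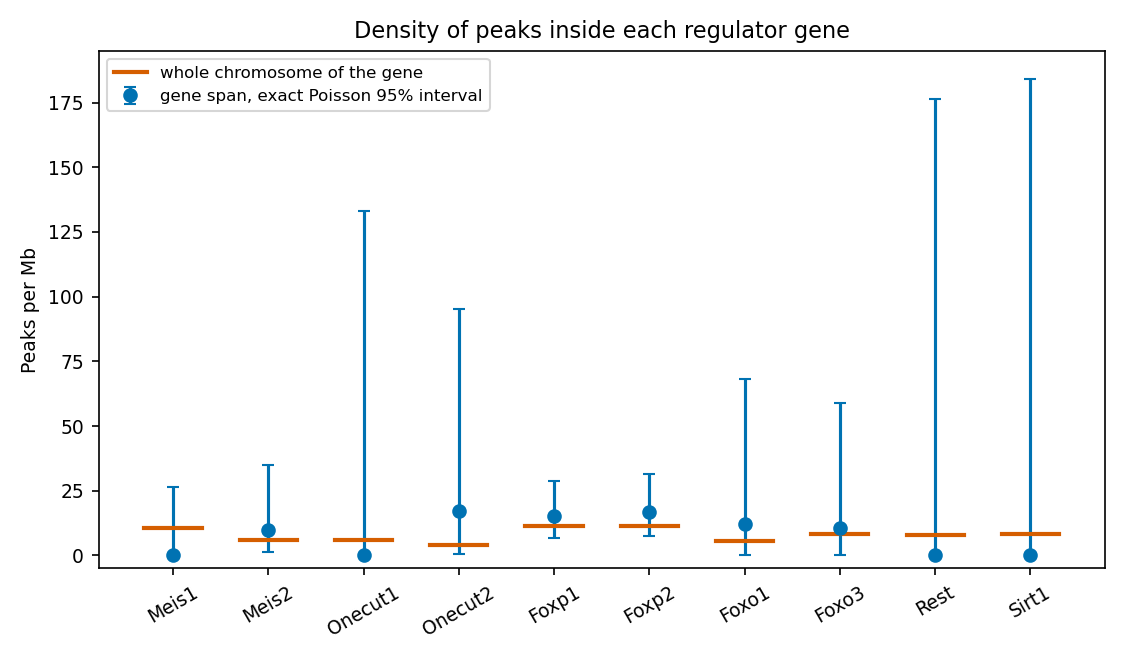
Peaks per Mb inside each of the 10 genes (points, with exact Poisson 95% intervals) and over the chromosome the gene lies on (lines). Each interval includes the chromosome's value, and only Foxp1 and Foxp2 rest on more than 2 peaks.

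Other gene lists gave the setting. Over all protein-coding genes, 34.2% had an assigned peak and 6.64% of those with a curated mRNA had one within 2 kb of a start. Of 17 further genes listed as mRNA targets of miR-9, 10 had an assigned peak (58.8%, 32.9 to 81.6%). A peak within 2 kb of a start was present in 3, namely Hmga2, Socs5 and Actl6a. Whether miR-9-5p itself targets each of the 17 mRNAs was not checked here. Of 21 paralogs and partners of the 10 genes, 4 had an assigned peak (19.0%, 5.45 to 41.9%), and none had one within 2 kb of a start. Their median span was 21.9 kb, beside 88.3 kb for the 10 genes and 30.4 kb for the 17 listed genes. Of 6 lung fibroblast marker genes 5 had an assigned peak, with Pdgfra within 2 kb of its start, and of 6 neuron marker genes 4 had one, none within 2 kb. The median span was 26.4 kb for the fibroblast markers and 168.2 kb for the neuron markers, and an assigned peak can lie far outside the gene. RNA was not measured in these libraries, so the levels of these genes in MLg cells are not known from them.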

How the data were processed

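MLg cells were profiled by ChIRP-seq with 1 miR-9 capture and 1 input library. Per the study's methods and the submitters' processing notes, reads were trimmed (Trimmomatic 0.36), aligned to mm10 (Bowtie2) and cleared of duplicates (Picard). Peaks were called over the input with MACS at a p-value cutoff and more than 1 shift size, merged (bedtools) and annotated (HOMER). Bowtie2 by default places a read with several loci at 1 of them. The deposited score was 0 in every peak, so depth was unknown and widths may follow the merging. The methods give the default merge setting and the file header a distance of 100 bases, and the smallest gap between neighbouring peaks was 101 bases. Annotations of 8093 peaks, split over fields, were rejoined.

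Positions, 1-based in mm10, were set against the RefSeq annotation and sequence of GRCm38.p6 and GENCODE M21 3' UTRs (Python 3.11.15, NumPy 2.4.6, SciPy 1.17.1). Protein-coding genes were matched to peaks by Entrez ID. Words and motifs were sought on both strands, and the search was tested on simulated data. Shares have exact Clopper-Pearson and densities exact Poisson 95% intervals. No test was run. All 10 genes were named, with their nearest and widest peaks, peaks outside introns and intergenic DNA, and peaks with words of 10 bases, and list genes only where a peak lay within 2 kb of a start. The paralogs and partners with an assigned peak are counted and not named. Members, lists, span classes and the width limit were chosen with earlier results of these data known. Rcor1 stood in 2 lists.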

Additional observations from a re-analysis of the deposited data

How the results depend on the processing

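The number of genes with a peak was 9, and 6 to 8 under the 5 alternatives. Of the 41 peaks, 20 had their centre inside their gene, or 23 with the 3 peaks in Foxp1 assigned to Mir12201. The 41 became 21 within 100 kb of the TSS, 26 with peaks over 250 bases and 21 without peaks in repeats. Genes with a peak near a start went from 1 to 2 within 5 kb, and seed matches from 0 under a peak to 3 within 1 kb. The share of peaks with a miR-9 word went from 7.32% to 31.7% with words of 8 bases, beside 26.4% of all peaks. It was 17.1% with words of 9 bases, beside 12.8%, and 11.5% in peaks over 250 bases, beside 9.71% of all such peaks. In peaks inside the genes it was 13.0%, and the share over all genes is not given here. These values lay inside the interval of the 7.32%, which covers counting error and not a change of word length or peak set. The density of 12.9 peaks per Mb became 7.70 without Foxp1 and Foxp2, an alternative chosen after seeing the data, as were leaving out high-copy peaks, the GENCODE 3' UTRs and words in peaks inside the gene. Over the remaining 20 of 28 alternatives, shares and densities stayed within their intervals and counts within 1.5 times. No paired analysis was possible because there was 1 capture library and 1 input library and the values came from no test. With 1 capture library, unknown depth and few peaks per gene, a gene without a peak cannot be told from one whose contact went undetected.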
